A study of Homo sapiens with 6 samples.

Results

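Aminoacyl-tRNA synthetases are the enzymes that attach each amino acid to its transfer RNA. Human cells keep separate sets for the cytosol and for the mitochondrion, and most mitochondrial enzymes have nuclear genes of their own, whose symbols end in 2. Several cytosolic enzymes are held together in the multisynthetase complex. Uncharged transfer RNA is sensed by the kinase GCN2, which phosphorylates eIF2alpha and favours translation of the transcription factor ATF4, and genes of several cytosolic synthetases are known targets of ATF4.

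The members were the rows of the deposited table whose Ensembl identifier belonged to 1 of 36 listed synthetase genes, 20 for cytosolic and 16 for mitochondrial enzymes. A row of their own was found for 27 of the 36, made up of 17 cytosolic and 10 mitochondrial genes, among 59192 features in all. The other 9 (FARSB, HARS, MARS, AARS2, HARS2, RARS2, SARS2, VARS2 and YARS2) had none and have no values here, so the second subunit of cytosolic phenylalanyl-tRNA synthetase and both histidyl-tRNA synthetases were not analysed. GARS and KARS each encode the cytosolic and the mitochondrial enzyme from 1 gene and were kept in the cytosolic group. Older symbols are used, so that AARS is the gene now called AARS1.

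The libraries came from SW480 cells, a colorectal cancer cell line, in which RNA sequencing was used to look for transcripts that differ after knockdown of HPSE, the gene of heparanase, an enzyme that cuts heparan sulfate. Both groups carried Cas9 from a puromycin-selected lentivirus and a second lentivirus with a guide RNA and EGFP. In SW480-KD1 the guide targeted HPSE, and in SW480-NC it was a control guide, with 3 libraries from independent experiments in each. The sample labels give the knockdown line a code of its own, SW480-45, and it was taken to be SW480-KD1 because the study's text compares the sequenced transcriptome of that line with SW480-NC. SW480-KD1 is a single line made with 1 guide, so a difference from SW480-NC holds for this pair of lines.

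Each library held between 33221323 and 39802365 reads assigned to features, as recovered from the normalized counts. The targeted gene, HPSE, had normalized counts of 136, 173 and 146 with its guide (SW480-KD1) and of 270, 295 and 246 without it (SW480-NC). No library overlapped, and the log2 fold change was −0.83 ± 0.14 (SE, n = 3 per line, limma adjusted p = 0.0547). A normalized count is a read count divided by 1 size factor per library. The summed level of the 7 colon epithelium markers with a row (of 10 listed, with most of the sum from KRT8) was 123150 to 132077 normalized counts in SW480-KD1 and 141385 to 150921 in SW480-NC. Fibroblast markers summed to 230 to 360 against 198 to 253 normalized counts over 3 of 5 genes, nearly all from COL1A1, and COL1A2 and LUM were at or near 0. Endothelial markers summed to 28.0 to 43.2 against 12.6 to 26.5 over 3 of 3 genes, and CD14, the 1 leukocyte marker of 5 with a row, had 38.6 to 44.3 against 28.97 to 46.7. In SW480-KD1 the KRT20 transcript, a keratin of mature colon epithelium, fell by 0.81 on the log2 scale (adjusted p = 0.00719, limma), the 1 epithelial marker of the 7 to pass. VIL1, the gene of villin, went the other way, with 8922, 9508 and 8854 normalized counts against 7576, 7607 and 8524 (log2 fold change 0.20, limma adjusted p = 0.225), and KRT8 had a log2 fold change of −0.21 (adjusted p = 0.141). The part of these marker levels in the synthetase results was not tested.

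To see which synthetases were the abundant ones, normalized counts were divided by the exon length of each gene, with all its annotated exons joined. They were then scaled to a total of 1000000 in each library. On this scale, the cytosolic genes in SW480-NC ranged from 49.3 for CARS, the cysteinyl-tRNA synthetase, to 392 for TARS, the threonyl-tRNA synthetase, with a median of 201. Such a ranking of genes also rests on the annotated exon lengths. CARS had a mean of 3599 normalized counts in SW480-NC over 10037 bases, while DARS, at 80.7 per length, had 2351 over 4014 bases. The mitochondrial genes ranged from 14.0 for FARS2 to 331 for IARS2, with a median of 38.0. IARS2, which charges isoleucine in mitochondria, stood well above the next mitochondrial gene, MARS2, at 119 ± 3.13 (SD, n = 3). For 8 pairs of a cytosolic and a mitochondrial gene for the same amino acid, with EPRS set beside EARS2, the levels could be compared within each library, and the cytosolic gene had the higher level per length in all 6 libraries for each of the 8.

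The distance within these pairs varied widely, and it also rests on the annotated exon lengths. In SW480-NC, TARS had 10.7 ± 1.13 times the level per length of TARS2 and FARSA had 11.6 ± 1.13 times that of FARS2, whereas IARS had 1.12 ± 0.0277 times that of IARS2 and WARS 1.33 ± 0.223 times that of WARS2 (SD, n = 3). In SW480-KD1, the ratio of CARS to CARS2 was 4.47, 4.43 and 4.65 against 3.48, 3.70 and 3.27 in SW480-NC. The ratio of IARS to IARS2 was 1.23, 1.37 and 1.22 against 1.11, 1.11 and 1.16, and that of LARS to LARS2 was 5.31, 5.02 and 5.30 against 4.76, 4.39 and 3.93. In these 3 pairs every SW480-KD1 library had the higher ratio. The ratio of FARSA to FARS2 moved the other way, 10.3, 7.90 and 7.93 in SW480-KD1 against 11.8, 12.7 and 10.4, and in the other 4 pairs the libraries of the lines overlapped. Among all single features, libraries did not overlap for 11.4% that were higher in SW480-KD1 and 12% that were lower. No such share was taken over ratios of genes. An exact permutation test of 3 against 3 libraries cannot go below p = 0.1, and the ratios were not tested further.

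Between the cell lines, no cytosolic synthetase passed an adjusted p of 0.05 in limma, and the same count of 0 of 17 was found with edgeR. With DESeq2, CARS (adjusted p = 0.0165) and GARS (adjusted p = 0.0309) passed. The differences were small and mostly upward in SW480-KD1. The median log2 fold change of the 17 genes was 0.12, from −0.16 for RARS to 0.38 for CARS, with 11 genes higher and 6 lower, while the median over all 21703 features tested was −0.0048 and 49.3% of them were higher. At an unadjusted p under 0.05, 6 of the 17 (35.3%) were higher and 0 were lower (6 in all with edgeR, 4 with DESeq2, and 3 when SW480-NC replicate 2 was left out of the limma fit). Over all features, 8.1% were called higher and 8.15% lower by this rule, and 0.802% passed the adjusted p in either direction. With edgeR 0.627% of features passed the adjusted and 15.9% the unadjusted p in either direction, and with DESeq2 4.55% and 13.6%. Since synthetases are abundant, the same shares were taken over the 8691 features at least as abundant as the least abundant member, and were 7.82% higher and 13.5% lower, with a median log2 fold change of −0.032. That member was the mitochondrial FARS2, with a mean of 551 normalized counts. The least abundant cytosolic gene, DARS, had 2313, so these features are not matched in abundance to the cytosolic genes. The libraries of the lines did not overlap for 9 of the 17 genes, of which 8 were higher and 1 was lower, against 11.4% of all features higher and 12% lower. With quantile normalization, 14 of the 17 had a positive log2 fold change. In bulk RNA, more transcript in each cell cannot be told from a larger share of cells that hold it.

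**Figure D1:**
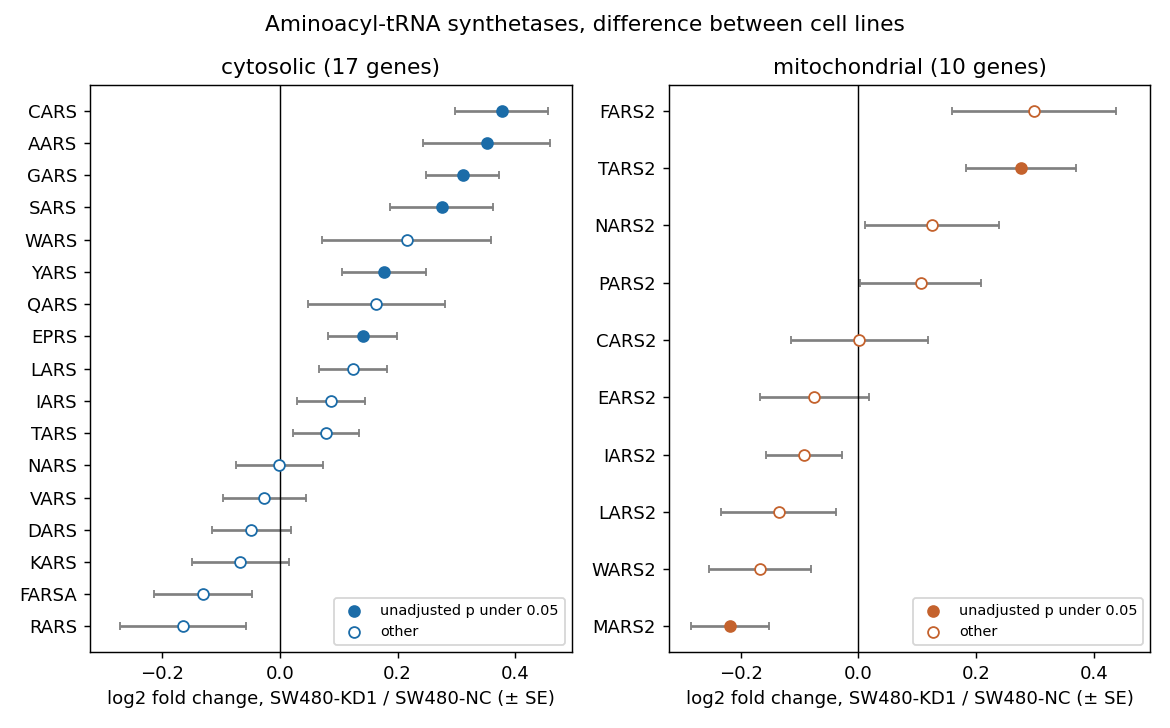
Log2 fold change of each synthetase gene, SW480-KD1 over SW480-NC, with bars of 1 SE from limma (3 libraries per line); filled points have an unadjusted p under 0.05 and no gene has an adjusted p under 0.05. Cytosolic genes run from −0.16 to 0.38 with all 6 filled points to the right of 0, and mitochondrial genes from −0.22 to 0.30 with 1 filled point on each side.

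The 6 cytosolic genes with an unadjusted p under 0.05 were CARS, AARS, GARS, SARS, YARS and EPRS. CARS (ENSG00000110619, GRCh38 chromosome 11, 3000922 to 3057613, minus strand) had 4643, 4811 and 4536 normalized counts in SW480-KD1 and 3376, 3488 and 3933 in SW480-NC. All SW480-KD1 libraries lay above all SW480-NC libraries, with a log2 fold change of 0.38 ± 0.078 (SE, 95% interval 0.19 to 0.56, n = 3 per line, limma adjusted p = 0.0921). AARS (ENSG00000090861, chromosome 16, 70252295 to 70289543, minus strand), which charges alanine, had 14330, 15800 and 15229 normalized counts in SW480-KD1 and 10262, 11691 and 13846 in SW480-NC. Here too the lines did not overlap, although the SW480-NC libraries were spread widely. The log2 fold change was 0.35 ± 0.11 (SE, 95% interval 0.10 to 0.60, limma adjusted p = 0.183).

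GARS (ENSG00000106105, chromosome 7, 30594681 to 30634033, plus strand), the glycyl-tRNA synthetase of both compartments, had 11203, 11320 and 12448 normalized counts in SW480-KD1. In SW480-NC it had 9475, 9305 and 9382, the tightest control values of these 6 genes, with an SD of 84.9. The lines were separate by more than the spread of either, at a log2 fold change of 0.31 ± 0.062 (SE, 95% interval 0.17 to 0.45, limma adjusted p = 0.0814). SARS (ENSG00000031698, chromosome 1, 109213918 to 109238169, plus strand), which charges serine, also onto the tRNA for selenocysteine, had 7903, 8432 and 7770 normalized counts against 6342, 6160 and 7485. The highest control library came close to the lowest SW480-KD1 library, and the log2 fold change was 0.27 ± 0.087 (SE, limma adjusted p = 0.197).

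YARS (ENSG00000134684, chromosome 1, 32775237 to 32818153, minus strand), the tyrosyl-tRNA synthetase, had 6357, 6505 and 6638 normalized counts after knockdown and 5636, 5420 and 6228 in control cells. EPRS (ENSG00000136628, chromosome 1, 219968601 to 220046658, minus strand), a fused enzyme that charges glutamate and proline, had 14538, 14699 and 15939 against 13348, 13770 and 13834. Both were higher in every SW480-KD1 library, by a log2 fold change of 0.18 ± 0.071 for YARS and 0.14 ± 0.058 for EPRS (SE, limma adjusted p = 0.283 and 0.293). These calls were the least stable of the 6. An unadjusted p under 0.05 was reached in 7 of 16 alternatives for YARS and in 6 of 16 for EPRS, but in all 16 for CARS, AARS and GARS and in 14 for SARS. Over those alternatives adjusted p-values lay between 0.0165 and 0.265 for CARS, 0.0682 and 0.402 for AARS, and 0.0309 and 0.245 for GARS.

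At the lower end were RARS, FARSA and KARS, for arginine, phenylalanine and lysine. RARS had 4573, 3729 and 4915 normalized counts in SW480-KD1 and 5107, 4728 and 4882 in SW480-NC. FARSA had 2609, 2648 and 2618 against 3154, 2855 and 2631, and KARS had 8156, 9352 and 8191 against 8314, 9003 and 9596. The libraries of the lines overlapped for RARS and KARS, and for FARSA the highest SW480-KD1 library lay just above the lowest control. The log2 fold changes were −0.16, −0.13 and −0.067 (limma adjusted p = 0.489, 0.485 and 0.725), and that of KARS turned to 0.014 with quantile normalization. DARS, the aspartyl-tRNA synthetase, was the gene with lower, non-overlapping libraries, at 2243, 2242 and 2337 against 2367, 2339 and 2347 normalized counts. Its highest SW480-KD1 library and lowest control were almost equal, and the log2 fold change was −0.048 ± 0.067 (SE, limma adjusted p = 0.759). QARS, which charges glutamine, had 3133, 3473 and 3828 against 2666, 3265 and 3402, which overlapped (log2 fold change 0.16, limma adjusted p = 0.528).

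The remaining cytosolic genes were WARS, LARS, IARS, TARS, NARS and VARS, with log2 fold changes of 0.22, 0.12, 0.087, 0.079, −0.0011 and −0.026. LARS, the leucyl-tRNA synthetase, and TARS were higher in every SW480-KD1 library (limma adjusted p = 0.334 and 0.526). The WARS libraries varied most of these, from 3124 to 4135 normalized counts in SW480-KD1 and from 2549 to 3471 in SW480-NC, and the 95% interval of its log2 fold change ran from −0.12 to 0.55.

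By structure, synthetases fall into class I and class II according to the fold of the catalytic domain. Of the cytosolic class I genes 6 of 8 were higher in SW480-KD1, with a median log2 fold change of 0.14, and of class II 4 of 8, with a median of 0.039. EPRS holds a domain of each class and was counted in neither. Of the 8 synthetases of the multisynthetase complex 7 were measured. Their median log2 fold change was 0.087 and 1 of the 7 (EPRS) had an unadjusted p under 0.05, while the synthetases outside the complex had a median of 0.20 and 5 of 10, all higher. Over all features, 8.1% were called higher by this rule, and 1 of 7 genes is near that share. No test of the difference between these groups was made.

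The complex is held together by scaffold proteins without synthetase activity. AIMP1 had 1699, 1900 and 1924 normalized counts in SW480-KD1 and 2234, 2311 and 2074 in SW480-NC. Its SW480-KD1 libraries all lay lower, and the log2 fold change was −0.26 ± 0.085 (SE, limma adjusted p = 0.204). AIMP2 had 1785, 1928 and 1854 against 2276, 1822 and 2149, which overlapped (log2 fold change −0.16, adjusted p = 0.465). The scaffold gene EEF1E1 had no row.

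Because several synthetase genes are known ATF4 targets, promoters were searched for the letters TGATGNAA, the pattern of the element that ATF4 binds together with C/EBP proteins, on both strands. The windows were RefSeq sequences on GRCh38.p14, from 250 bases before to 50 bases after each annotated start. A window was matched for 16 of the 20 cytosolic genes and 14 of the 16 mitochondrial genes. The letters were in 7 of the 16 cytosolic windows (43.8%), in 1 of the 14 mitochondrial windows (7.14%, YARS2), and in 1217 of 27305 genes with a window (4.46%). They were also in 5 of 18 windows of other amino acid response genes, described further on. The 7 cytosolic genes are printed with these 5. Most of the 7 carried the same letters TTGCATCA or their reverse complement TGATGCAA, in several of them close to the start. Each line gives 5′ to 3′ sequence on the strand of the gene, with the matched letters in capitals.
AARS, chr16:70289675-70289704, minus strand: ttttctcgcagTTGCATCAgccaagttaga
CARS, chr11:3057407-3057436, minus strand: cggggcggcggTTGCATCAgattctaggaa
GARS, chr7:30594834-30594863, plus strand: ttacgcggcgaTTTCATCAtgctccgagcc
IARS, chr9:92293692-92293721, minus strand: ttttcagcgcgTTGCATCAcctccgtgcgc
MARS, chr12:57488053-57488082, plus strand: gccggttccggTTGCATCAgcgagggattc
NARS, chr18:57621804-57621833, minus strand: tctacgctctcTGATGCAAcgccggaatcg
TARS, chr5:33440956-33440985, plus strand: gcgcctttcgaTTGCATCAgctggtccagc
ASNS, chr7:97872458-97872487, minus strand: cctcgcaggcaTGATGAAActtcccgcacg
ATF3, chr1:212565205-212565234, plus strand: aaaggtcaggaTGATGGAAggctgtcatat
CEBPG, chr19:33374060-33374089, plus strand: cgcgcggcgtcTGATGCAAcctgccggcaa
CHAC1, chr15:40953251-40953280, plus strand: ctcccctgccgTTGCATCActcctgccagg
SLC3A2, chr11:62881725-62881748, plus strand: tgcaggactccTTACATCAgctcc

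Relative to the RefSeq start, the first matched letter lay at −2 in CARS, −4 in MARS, −13 in IARS, −33 in GARS, −68 in ASNS and −187 in AARS, and after the start at 2 in TARS and 14 in NARS. Among the measured cytosolic genes, the 6 with these letters had a median log2 fold change of 0.20, and 3 of them (CARS, AARS and GARS) had an unadjusted p under 0.05. The 7 with a window but without the letters had a median of 0.14, and 2 had an unadjusted p under 0.05. All 5 were higher, by a rule that called 8.1% of all features higher. YARS, which also had an unadjusted p under 0.05, had no matched window and is in neither group. The 3 genes with the highest log2 fold changes thus carried the letters, as did NARS and TARS with −0.0011 and 0.079. Of the 5 response genes with the letters, ASNS rose (log2 fold change 0.66, limma adjusted p = 0.0132), and ATF3, SLC3A2, CHAC1 and CEBPG had 0.86, 0.084, 0.075 and −0.078 (limma adjusted p = 0.240, 0.681, 0.960 and 0.588). The other response genes that passed the adjusted p in limma were PSAT1, DDIT4 and NUPR1, with log2 fold changes of 0.43, 1.08 and 1.14. No match was found for any of them. A match describes the letters of the window only, and binding was not measured.

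No mitochondrial synthetase passed an adjusted p of 0.05 with limma, edgeR or DESeq2, and their differences went both ways. Of the 10 genes, 5 were higher and 5 lower in SW480-KD1, with a median log2 fold change of −0.036. At an unadjusted p under 0.05, 1 was higher (TARS2) and 1 lower (MARS2), which is 10% each way (2 in all with edgeR and with DESeq2, and 1 when SW480-KD1 replicate 2 or SW480-NC replicate 1 was left out), against 8.1% and 8.15% of all features. Non-overlapping libraries were found for 1 gene higher and 2 lower, against 11.4% and 12% of all features. The sign of the median rested on single libraries, being 0.0074 when SW480-KD1 replicate 3 was left out and 0.054 when SW480-NC replicate 3 was.

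MARS2 (ENSG00000247626, chromosome 2, 197705369 to 197708387, plus strand), the mitochondrial methionyl-tRNA synthetase, had 2302, 2191 and 2225 normalized counts in SW480-KD1 and 2578, 2628 and 2608 in SW480-NC. Both groups were tight and did not overlap, with a log2 fold change of −0.22 ± 0.066 (SE, 95% interval −0.37 to −0.064, limma adjusted p = 0.182). Its unadjusted p was under 0.05 in all 16 alternatives, with adjusted p from 0.122 to 0.488. TARS2 (ENSG00000143374, chromosome 1, 150487364 to 150507609, plus strand), which charges threonine in mitochondria, had 1296, 1366 and 1286 normalized counts in SW480-KD1 and 993, 1089 and 1187 in SW480-NC. Here all SW480-KD1 libraries were higher, at a log2 fold change of 0.28 ± 0.093 (SE, 95% interval 0.059 to 0.49, limma adjusted p = 0.219). For TARS2 the unadjusted p was under 0.05 in 14 of the 16 alternatives, with adjusted p from 0.157 to 0.457.

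FARS2, the mitochondrial phenylalanyl-tRNA synthetase and the least abundant member, had 504, 667 and 657 normalized counts against 531, 446 and 501. One SW480-KD1 library lay within the control range, and the log2 fold change of 0.30, the highest of the mitochondrial genes, had a 95% interval from −0.025 to 0.62 (limma adjusted p = 0.339). NARS2, for asparagine, had 1231, 997 and 1261 against 1077, 991 and 1117, which overlapped (log2 fold change 0.13, limma adjusted p = 0.627). WARS2, for tryptophan, had 1251, 1236 and 1223 in SW480-KD1 and 1524, 1324 and 1327 in SW480-NC, with no overlap (log2 fold change −0.17, limma adjusted p = 0.392). LARS2, for leucine, had 1192, 1285 and 1268 against 1235, 1380 and 1509, which overlapped (log2 fold change −0.14, limma adjusted p = 0.532). PARS2, CARS2, EARS2 and IARS2 had log2 fold changes of 0.11, 0.0016, −0.075 and −0.092, all with overlapping libraries. By class, all 4 mitochondrial class II genes were higher in SW480-KD1 (median log2 fold change 0.20) and 5 of the 6 class I genes were lower (median −0.11), a split that was seen in the values and not tested.

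Summed over their members, the cytosolic synthetases had 142460, 149148 and 151200 normalized counts in SW480-KD1 and 131794, 132724 and 141361 in SW480-NC. The means were 147602 ± 4570 and 135293 ± 5275 (SD, n = 3), a ratio of 1.09. The mitochondrial synthetases summed to 20337, 20094 and 21064 normalized counts against 20966, 20924 and 22143, a ratio of 0.960, with overlapping libraries. The cytosolic sum was 7.01, 7.42 and 7.18 times the mitochondrial sum in SW480-KD1 and 6.29, 6.34 and 6.38 times in SW480-NC. All ratios of SW480-KD1 lay above those of SW480-NC, although SW480-KD1 replicate 1 and SW480-NC replicate 3 had nearly equal cytosolic sums. SW480-NC replicate 3 was the highest control library for 11 of the 17 cytosolic and 7 of the 10 mitochondrial genes. In the sums the most abundant genes weigh most, and IARS2 had a mean of 9410 of the 20498 mitochondrial normalized counts in SW480-KD1.

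The other genes known to respond to amino acid shortage, ATF4 and its targets, were set beside the synthetases, although DDIT4 and NUPR1 of this list were known to differ in these data. Of the 23 listed genes 20 were tested, and 4 rose in SW480-KD1 while 0 fell (limma), by a rule that called 0.802% of all features. DDIT4 and NUPR1 were among these 4, so the comparison with that share rests in part on genes known beforehand. The others were ASNS and PSAT1. Both known genes are also in the edgeR, DESeq2 and unadjusted counts and in the median below. With edgeR the count was 4, against 0.627% of all features, and with DESeq2 it was 10, against 4.55%. At an unadjusted p under 0.05, 11 were higher and 0 lower, against 8.1% and 8.15% of all features. Their median log2 fold change was 0.37, from −0.078 for CEBPG, a partner of ATF4, to 1.14 for NUPR1, and 17 of the 20 were positive. ASNS, which makes asparagine, had 10919, 10506 and 11429 normalized counts in SW480-KD1 and 6550, 6755 and 7459 in SW480-NC. PSAT1, an enzyme of serine synthesis, had 14736, 14245 and 14625 against 10961, 11051 and 10468. Neither gene had overlapping libraries, and they rose by a log2 fold change of 0.66 ± 0.071 and 0.43 ± 0.053 (SE, limma adjusted p = 0.0132 and 0.0243). The stress response genes DDIT4 and NUPR1 rose by 1.08 ± 0.091 and 1.14 ± 0.14 (SE, limma adjusted p = 0.00577 and 0.0184). The transcript of ATF4 itself, named here after its values were seen, had 19473, 18899 and 18435 against 14797, 12745 and 15470 normalized counts. Its libraries did not overlap, and the log2 fold change was 0.41 ± 0.079 (SE, limma adjusted p = 0.0803, DESeq2 adjusted p = 0.0118). None of the 4 calls held in every alternative, with the adjusted p reaching 0.115 for ASNS and 0.151 for PSAT1 without an intensity trend. With the libraries blocked by replicate number it was 0.0737 for ASNS, 0.168 for PSAT1, 0.0519 for DDIT4 and 0.0947 for NUPR1. ASNS had an adjusted p of 0.0607, 0.0503 and 0.0668 when SW480-KD1 replicate 1, SW480-NC replicate 1 or SW480-NC replicate 2 was left out. For NUPR1 it was 0.0690, 0.0625, 0.0532 and 0.0813 after leaving out, in turn, replicate 1 or 2 of SW480-KD1 and replicate 1 or 2 of SW480-NC. PSAT1 stayed under 0.05 when SW480-NC replicate 3 was left out, and had 0.0686 to 0.119 when any other library was.

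The other partner lists held no gene with an adjusted p under 0.05 in limma, edgeR or DESeq2. Among the kinases that sense stress through eIF2alpha and their partners, 7 of 9 were tested, with 1 higher and 1 lower at an unadjusted p under 0.05, near the 8.1% and 8.15% of all features. EIF2S1, the gene of eIF2alpha itself, was the lowest at a log2 fold change of −0.26 (limma adjusted p = 0.156), and PPP1R15A, which helps to remove the phosphate from eIF2alpha, the highest at 0.28 (adjusted p = 0.3002). Of the related synthetases, editing enzymes and the tRNA exporter XPOT, 4 of 8 were tested and 0 had an unadjusted p under 0.05. The highest log2 fold change among them was 0.077 for TARS3, a second threonyl-tRNA synthetase of the cytosol. Of the genes for mitochondrial tRNA maturation and the amidotransferase that makes mitochondrial Gln-tRNA, 9 of 16 were tested and 0 had an unadjusted p under 0.05, from −0.15 for TRMT10C to 0.14 for HSD17B10, both parts of mitochondrial RNase P. The elongation factor list holds genes that help carry charged tRNA to the ribosome or move it along, and related ones such as GFM2. Of the list, 4 of 6 cytosolic and 3 of 4 mitochondrial genes were tested. EEF1A2 was the highest of the cytosolic genes at 0.31 (limma adjusted p = 0.179, 1 of the 4 at an unadjusted p under 0.05, against 8.1% of all features) and EEF1D the lowest at −0.017, a value that turned positive under 3 alternatives. Of the mitochondrial genes GFM1 was the lowest at −0.12 and GFM2 the highest at 0.11, with 0 of 3 at an unadjusted p under 0.05.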

How the data were processed

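RNA of 6 libraries, 3 each of SW480-KD1 and SW480-NC, was sequenced by the authors. The deposited table gives each feature a signal, namely its read count after the authors had scaled every library by 1 size factor. The submitters' processing notes list bcl2fastq, HISAT2, DESeq2 and GRCh38, and the study's methods name Cuffdiff. Versions, the counting tool and the annotation are not given in the sources used here. The library kit, as named, does not keep strand, so reads of overlapping genes on opposite strands cannot be told apart. The largest such exon overlap among measured members was 7.6% of the exon length of DARS. Of the 59192 features, 25927 had an Ensembl identifier and 33265 were loci of a transcript assembler, which may hold the members that had no row. Symbols, exon lengths and coordinates came from GENCODE 29 by identifier.

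Values in each library were whole multiples of 1 step, and dividing by it gave whole reads for 100% of values within 0.01. The least covered member had 462 reads. Replicates of 1 line differed by more than sampling noise (chi-square per feature 21.3 to 26.9). Features were kept at a mean of 10 or more (21703) and fitted in limma 3.58.1 (R 4.3.3, intensity trend) after log2 transformation with a pseudocount of 1, with Benjamini-Hochberg adjustment over all of them. All 27 members with a row passed this filter. Fold changes are on the log2(normalized count + 1) scale. Alternatives were edgeR 4.0.16 (quasi-likelihood) and DESeq2 1.42.0 on the recovered reads, and 14 others. The steps were tested on simulated data. The planted changes were larger than any synthetase difference seen here, so detection of differences of this size was not examined. Permutation tests were exact and two-sided.

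Members and lists were chosen with earlier results of these data known, so no test was made over a list. Values in every library are given for members with an unadjusted p under 0.05, for the 3 highest and 3 lowest of each compartment, and for GARS, KARS, QARS and FARSA. Of the partner lists, genes past the adjusted p, the highest and lowest of each list, and the scaffold genes are named, except for 1 gene that is not reported here. Protein sequences were not analysed here. Replicate numbers did not pair the libraries: deviations of same-numbered libraries from their line means correlated by 0.0025, −0.020 and 0.0074 across features.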

Additional observations from a re-analysis of the deposited data

How the results depend on the processing

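Against 16 alternatives, the count of features with an adjusted p under 0.05 (174) was 756 with DESeq2, 11 without an intensity trend, 12 with the replicate block, and 36 to 104 when 1 library was left out. The cytosolic median (0.12) was 0.17 with quantile normalization and 0.090 to 0.14 with 1 library left out. The 0 cytosolic genes with an adjusted p under 0.05 became 2 with DESeq2, and the 6 with an unadjusted p under 0.05 became 3 without an intensity trend and 3 to 6 with 1 library left out, 3 being the count without SW480-NC replicate 2. The mitochondrial median (−0.036) reversed to 0.0074 when SW480-KD1 replicate 3 was left out and to 0.054 when SW480-NC replicate 3 was, and ranged from −0.080 to 0.054 over all libraries left out. The count of mitochondrial genes with an unadjusted p under 0.05 ranged from 1 to 3, with 1 without SW480-KD1 replicate 2 or without SW480-NC replicate 1. The adjusted p of HPSE was under 0.05 at log2 fold changes of −0.83 without a filter (0.0451), with a mean of at least 50 (0.0460), with Ensembl genes only (0.0462) and with DESeq2 (0.000948). KARS reversed to 0.014 and EEF1D to 0.031 with quantile normalization, and EEF1D ranged from −0.22 to 0.17 with 1 library left out, at 0.037 when SW480-KD1 replicate 3 was dropped and 0.17 when SW480-NC replicate 1 was. The causes were not tested.

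Replicate numbers did not pair the libraries, and the fit with the replicate block left the cytosolic median at 0.12 and the mitochondrial median at −0.036, with 4 cytosolic and 2 mitochondrial genes at an unadjusted p under 0.05. No scaling moved the median of all features by over 0.1. Each scaling centres the libraries on one another, so this could hardly come out otherwise. Quantile normalization did move the cytosolic median from 0.12 to 0.17. There were 3 libraries per line, and each member had at least 462 reads in each library. The parts of library number and of depth in the precision were not tested.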
